A study of Mus musculus with 9 samples.

Results

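Colonic RNA of the DSS+PAMK group was compared with that of the Control group, with 3 arrays in each, chosen by their labels from the 9 arrays of the study. The comparison asks how far the colon of mice given PAMK after DSS lay from that of mice which never drank DSS. All mice were male C57BL/6J of 10 weeks. The DSS+PAMK group drank 3% DSS (dextran sulfate sodium, a sulfated polysaccharide that injures the colonic epithelium) for 7 days and then received 200 mg/kg PAMK by gavage from day 8 to day 14. PAMK is extracted from the rhizome of Atractylodes macrocephala and is a polysaccharide. The Control group drank distilled water and was given saline by gavage over the same days. The remaining 3 arrays, of the DSS group, came from mice that had DSS followed by saline, and their values are set beside the others without a test. The labels do not say that the 3 samples of a group came from separate mice, so p-values measure only the spread between these samples.

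In the healthy colon, goblet cells secrete the mucus layer and absorptive colonocytes take up salt, water and short-chain fatty acids. After injury of the epithelium, neutrophils and monocytes enter the wall from the blood, and mast cells and regulatory T cells reside in or join the tissue. In a piece of colon, more cells of a type and more RNA per cell cannot be told apart. Of the 7 genes set to check the tissue, only Slc26a3, the chloride/bicarbonate exchanger of surface colonocytes, could be linked to a probe. Its normalized log2 intensity was 12.84, 13.34 and 12.84 on the Control arrays and 13.68, 13.71 and 13.68 on the DSS+PAMK arrays, so this colonocyte gene was strongly expressed in both groups.

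The array files give each probe a sequence but no gene. Of 166924 probes, 770 were linked to 734 gene symbols, and 445 of these probes, of 417 symbols, were tested. The 160 tested probes named from the supplementary sheets were selected by the authors on these same arrays, for differences of the DSS group from the Control group or of the DSS+PAMK group from the DSS group. They are therefore not independent evidence of a direction. Another 279 were named by at least 30 bases shared with the first 50 transcribed bases of 1 gene in RefSeq (GRCm38.p6), 5 by a miRNA hairpin and 1 by a primer. Because the probe is what ties a value to a transcript, 30 bases of the 60-base probes are shown for the genes the results turn on. Capitals mark the bases shared with the start of the transcript in the second probe of Ms4a2 and the bases of the primer in Il18.
Ms4a2: cacagttactctatcacggtagtaaactgt
Ms4a2 at the transcript start: CAACCCATCTTAACTGCCCATCCAGAGCAC
Cpa3: aagttgcaaggattgccacggatgctctct
Ccr2: tgaacaatagagacctttaaatcaggtgcc
Foxp3: aaaccagggtaactatcagtgcacatcttg
Il18: ACTGTACAACCGCAGTAATACGGaatataa
Pnliprp2: ttgatatcaatggaatatgggaaggaactc
Clps: gggtcttattatcaacctggaggacggtga
Itln1: ggagactttgcgtcatttgattgggatgga
Hsph1: attattaccaagtcaagagtacaacagagc

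Genes called higher on the DSS+PAMK arrays than on the Control arrays included Cpa3, a protease gene and 1 of 2 tested mast cell genes. They also included Foxp3, 1 of 3 tested T cell genes, and 4 of 9 tested genes of monocytes and macrophages. Of these 4, Lair1 was tested only through the DSS+PAMK arrays, where it was high. The digestive enzyme genes Pnliprp2 and Clps, the lectin gene Itln1 and the heat shock gene Hsph1 were among those called lower. Calls required a difference of 2-fold or more together with an unadjusted p of 0.05 or less in limma. Of 97823 tested probes, 1586 (1.62%) were called higher and 980 (1%) lower, together 2566 (2.62%), so that 61.8% of the calls were higher. After Benjamini-Hochberg adjustment limma called 0 probes. The lowest adjusted p, 0.097, belonged to a probe that was dim on all Control arrays, while before adjustment 13789 probes (14.1%) reached a p of 0.05 or less. The 3 DSS+PAMK arrays lay entirely on one side of the 3 Control arrays for 24163 probes (24.7%). This held for 1366 of the probes called higher and 878 of those called lower. For comparison, the methods' t-test gave 935 higher and 652 lower calls, and 0 probes passed its adjustment.

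These counts moved with the processing and with single arrays. Without Control replicate 2, 3378 probes were called higher and 1726 lower, and 30 passed the adjustment in limma. Without Control replicate 1, the counts were 990 and 561. When the arrays were instead aligned at their 75th percentile, 892 probes were called higher and 3873 lower, and only 18.7% of the calls were higher. The balance between higher and lower probes therefore depended on the scaling. No slide held both groups, since all Control arrays lay on slide 1 and the DSS+PAMK arrays on slides 2 and 3. Slide could be entered as a fixed block only through the DSS arrays on slides 1 and 2, and then 3919 probes were called higher and 6722 lower. DSS+PAMK replicate 3 was the only array on slide 3, so with this block the difference rested on DSS+PAMK replicates 1 and 2. Of the 2566 calls, 132 had the opposite sign in that fit. The normexp background correction was run with an added offset of 50, so correction and offset changed together and their separate parts were not tested. It gave 185 higher and 153 lower, with 146 probes passing the adjustment in limma, and ended the calls of 25 of 33 called genes. These are the called genes among those picked by a rule on size of difference, overlap and list membership.

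**Figure D1:**
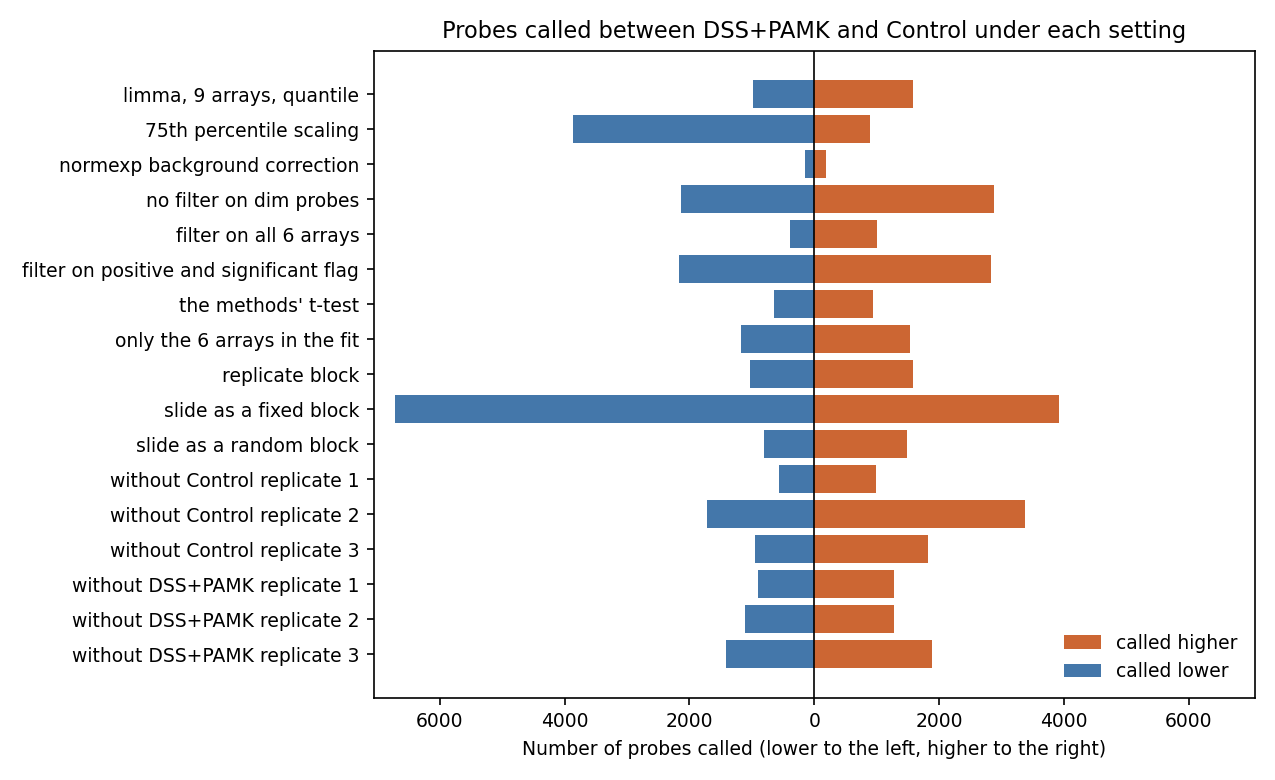
Number of probes called lower (left, blue) and higher (right, orange) on the DSS+PAMK arrays than on the Control arrays under each setting. The first bar holds 1586 higher and 980 lower probes, and the bars for the 75th percentile and for slide as a fixed block reach further to the left than to the right.

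Detection differed between the arrays. The share of spots well above background was 72.2%, 63.9% and 66.0% on the Control arrays and 55.4%, 55.7% and 67.3% on the DSS+PAMK arrays. DSS+PAMK replicates 1 and 2 were thus below every Control array, and replicate 3 was above Control replicates 2 and 3. The median processed intensity was 29.4, 21.4 and 21.0 on the Control arrays and 15.5, 15.7 and 24.1 on the DSS+PAMK arrays. The part of detection in the calls was not tested. Of the probes called lower, 326 were not well above background on any DSS+PAMK array, and of those called higher, 67 were not so on any Control array.

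**Figure D2:**
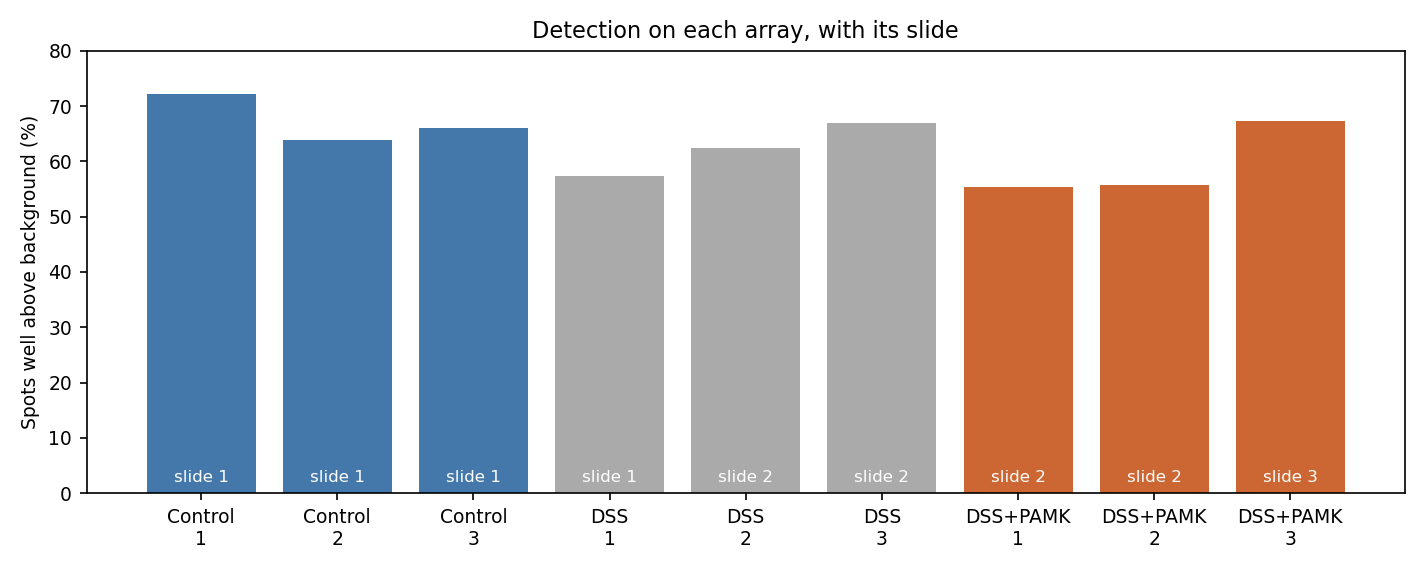
Percentage of probe spots well above background on each of the 9 arrays, with the slide of each array written in its bar. The bars of DSS+PAMK replicates 1 and 2, at 55.4% and 55.7%, are below all 3 Control bars.

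The lists of genes by cell type and function held 610 genes, of which 63 could be named and 52 were tested, 48 of them from the authors' sheets. Of the 52 genes, 11 were called higher and 4 lower, and their median log2 difference was 0.57. Among the 11, Lair1 and Nos2 were tested only through the DSS+PAMK arrays, where they were high. Over all tested probes the median was -0.01 and 2.62% were called. Of the 160 probes from the sheets, 26 were called higher and 12 lower (23.8%), whereas of the 279 probes named only by a transcript start, 4 were called higher and 6 lower (3.58%). The share in the lists thus stands beside that of probes chosen on these arrays. Of the 32 lists, 15 had no tested gene, among them those of smooth muscle, tight junctions, B and plasma cells, endothelium and enteric neurons.

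**Figure D3:**
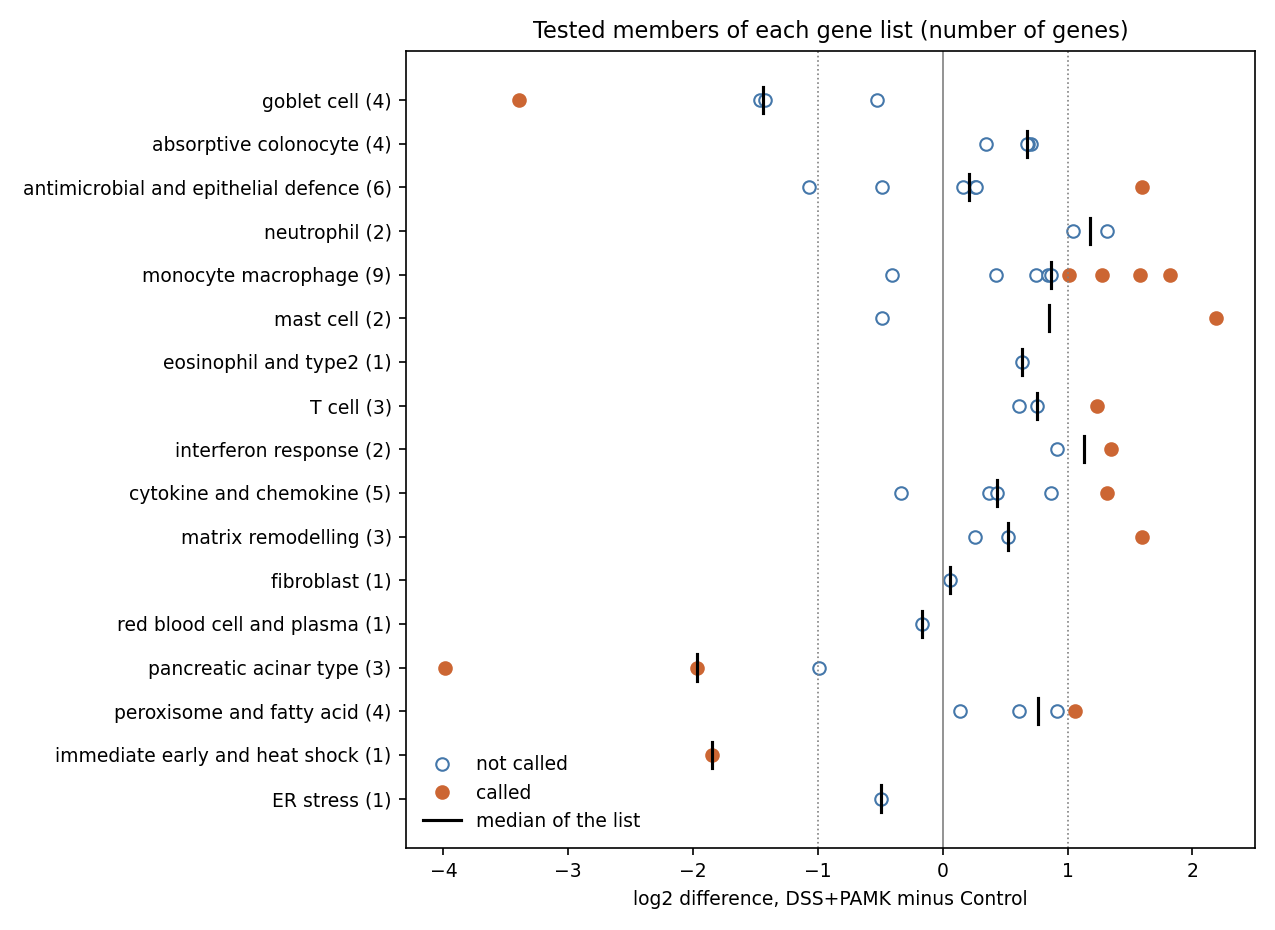
Log2 difference between the DSS+PAMK and Control groups for every tested gene of each list, with called genes filled in orange, other genes open and the median of the list as a black bar. The dotted lines mark a fold change of 2, and the 3 genes of digestive enzymes lie left of 0.

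Of the 2 tested mast cell genes, 1 was called higher. The other, Ms4a2, encodes the beta chain of the high-affinity IgE receptor, and its probe from the sheets was chosen here after its values were seen. It was at 1.20, 1.30 and 1.30 on the Control arrays, not well above background on any of them, and at 4.58, 4.38 and 5.24 on the DSS+PAMK arrays. The DSS+PAMK mean was higher by at least 3.37-fold. The probe was tested only because the DSS+PAMK arrays were above background, and no p is given, since the Control values lie below the range the arrays resolve. In such a bound, a signal dimmer than that of the dimmest probe well above background on its array was replaced by the latter. This floor is not a strict limit of detection. The probe of 4930469K13Rik was above it on all DSS+PAMK arrays (3.99, 4.07 and 4.31) but well above background on only 2 of them. Each bound therefore holds only for this floor. On the DSS arrays the Ms4a2 probe from the sheets was at 4.82, 5.22 and 5.79.

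The second Ms4a2 probe, at the transcript start, disagreed with the first. It was at 4.66, 4.76 and 4.57 on the Control arrays and at 4.25, 3.96 and 4.31 on the DSS+PAMK arrays, a log2 difference of -0.49 (SE 0.27), and was not called. As the brighter probe it stands for the gene in the list. Cpa3, the gene of the mast cell granule protease carboxypeptidase A3, was the other tested member. It was at 5.01, 3.49 and 4.38 on the Control arrays and at 6.26, 6.66 and 6.54 on the DSS+PAMK arrays, a log2 difference of 2.19 (SE 0.33, adjusted p = 0.138 from limma). All DSS+PAMK arrays lay above all Control arrays. The DSS arrays, at 7.58, 7.43 and 7.44, were higher than both. With normexp the log2 difference of Cpa3 was 0.87, under the fold threshold, and it was not called, although its adjusted p was 0.036 from limma.

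Of the 9 tested genes of monocytes and macrophages, 4 were called higher and 0 lower, 8 lay above the Control group, and the median log2 difference was 0.87. Ccr2, the receptor that draws monocytes out of the bone marrow, was at 5.33, 5.07 and 5.14 on the Control arrays and at 6.80, 7.55 and 6.65 on the DSS+PAMK arrays. The log2 difference was 1.82 (SE 0.27, adjusted p = 0.131 from limma), and its second probe gave 1.80. The call of Ccr2 held under every setting tried, which was so for 3 of the 33 called genes picked by the rule. Lair1, an inhibitory receptor for collagen on leukocytes, was at 3.47, 3.10 and 3.56 on the Control arrays, where 2 of 3 arrays were well above background, and at 5.16, 5.19 and 4.54 on the DSS+PAMK arrays, through which alone it was tested. Lilrb4a, another inhibitory receptor of myeloid cells, went from a mean of 6.47 ± 0.14 (SD, n = 3) to 7.74 ± 0.19. Ms4a6c, a membrane protein gene of the Ms4a family, had a log2 difference of 1.01, just past the fold threshold, and its call ended without Control replicate 2 (0.91), Control replicate 3 (0.996) or DSS+PAMK replicate 2 (0.86).

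The other immune lists had few tested members. Foxp3, the transcription factor that defines regulatory T cells, was the called gene among 3 tested T cell genes. It was at 4.90, 4.48 and 4.54 on the Control arrays, 5.65, 6.12 and 5.86 on the DSS+PAMK arrays and 6.26, 6.50 and 6.39 on the DSS arrays. The log2 difference between the DSS+PAMK and Control groups was 1.24 (SE 0.18, adjusted p = 0.131 from limma), but it was 0.98, under the fold threshold, with the 75th percentile and 0.49 with normexp. Tc2n, the brightest T cell member, differed by 0.76 and was not called. Of 2 interferon-stimulated genes, Ifit1, which binds foreign RNA, was called with a log2 difference of 1.35, and Oasl2 was not, with 0.92. Oasl2 was called without Control replicate 1 (1.02), Control replicate 3 (1.08) or DSS+PAMK replicate 1 (1.08), and with slide as a fixed block (1.60). Without Control replicate 2, at 4.34 the lowest Control array, the difference of Ifit1 was 0.925 and it was not called. Of 2 neutrophil genes, 0 were called. The brighter was Clec4d, a lectin receptor, at 6.62, 6.19 and 6.76 on the Control arrays and 7.24, 8.86 and 7.43 on the DSS+PAMK arrays. The groups did not overlap, and the log2 difference of 1.32 just missed the p threshold. Clec4d was called with the 75th percentile (1.37), with the filter on all 6 arrays, with only the 6 arrays in the fit and without DSS+PAMK replicate 1 (1.62), whereas without DSS+PAMK replicate 2 it was at 0.81. Alox15, the 1 tested gene of the eosinophil list, differed by 0.64 with overlapping arrays. The difference was 0.30 without Control replicate 3, 0.98 without DSS+PAMK replicate 2, 0.34 with the 75th percentile and 0.20 with normexp.

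Among epithelial defence, cytokine and matrix genes, 1 of each list was called, in each case higher. Nos2, the inducible nitric oxide synthase, was at 4.02, 3.73 and 2.52 on the Control arrays and 4.44, 6.24 and 4.39 on the DSS+PAMK arrays. Control replicate 3 was not well above background, so the probe was tested only through the DSS+PAMK arrays and the size of its difference is not given. The call ended without DSS+PAMK replicate 2, Control replicate 2 or Control replicate 3, with the 75th percentile, with normexp and by the methods' t-test. The other 5 tested defence genes were not called, and the brightest, the antimicrobial lectin Reg3g, was at 13.54, 8.35 and 11.48 on the Control arrays and between 10.42 and 12.43 on the DSS+PAMK arrays. The spread of Reg3g among the Control arrays was larger than the log2 difference of 0.16 between the groups. Its DSS arrays were at 15.75, 15.43 and 17.32.

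Il18 encodes an epithelial cytokine of the inflammasome pathway and was the brightest of 5 tested cytokine genes. It was at 12.35, 13.75 and 12.50 on the Control arrays, 13.86, 13.37 and 13.37 on the DSS arrays and 14.25, 14.46 and 13.83 on the DSS+PAMK arrays. The DSS+PAMK arrays were thus the highest of the 9 except that DSS replicate 1 lay just above DSS+PAMK replicate 3. All DSS+PAMK arrays lay above all Control arrays, by a log2 difference of 1.32 (SE 0.37, adjusted p = 0.248 from limma), but the methods' t-test did not call Il18. Mmp3, a matrix-degrading protease of stromal cells, was at 4.76, 4.90 and 5.22 on the Control arrays and 6.53, 7.19 and 5.94 on the DSS+PAMK arrays. Its log2 difference was 1.59, and 1.28 without DSS+PAMK replicate 2, which ended the call. Mmp7, the brightest matrix gene, was at 7.42, 2.79 and 6.94 on the Control arrays, and Control replicate 2 thus stood far below the others.

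Other genes called higher without overlap lay outside the lists. Fer1l4 was at 1.45, 1.44 and 3.97 on the Control arrays, of which only replicate 3 was well above background, and at 4.51, 4.09 and 4.76 on the DSS+PAMK arrays, so the size of its difference is not given. Ipcef1 went from 4.46 ± 0.23 (SD, n = 3) to 5.99 ± 0.38, and Rab44 from 4.37 ± 0.44 to 5.64 ± 0.42. The call of Rab44 ended with the 75th percentile (0.89) and with normexp (0.48). The interferon-inducible Ifi205 was well above background on 2 of 3 Control arrays and was tested only through the DSS+PAMK arrays, and its call ended with the 75th percentile and with normexp. Txndc16 was at 2.96, 4.83 and 3.35 on the Control arrays and 5.42, 5.12 and 5.52 on the DSS+PAMK arrays. Cyp2d10, a cytochrome P450 gene, was named by its transcript start, and its log2 difference of 1.41 became 0.93 without Control replicate 1 and 1.13 without DSS+PAMK replicate 2, which ended the call in each case.

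**Figure D4:**
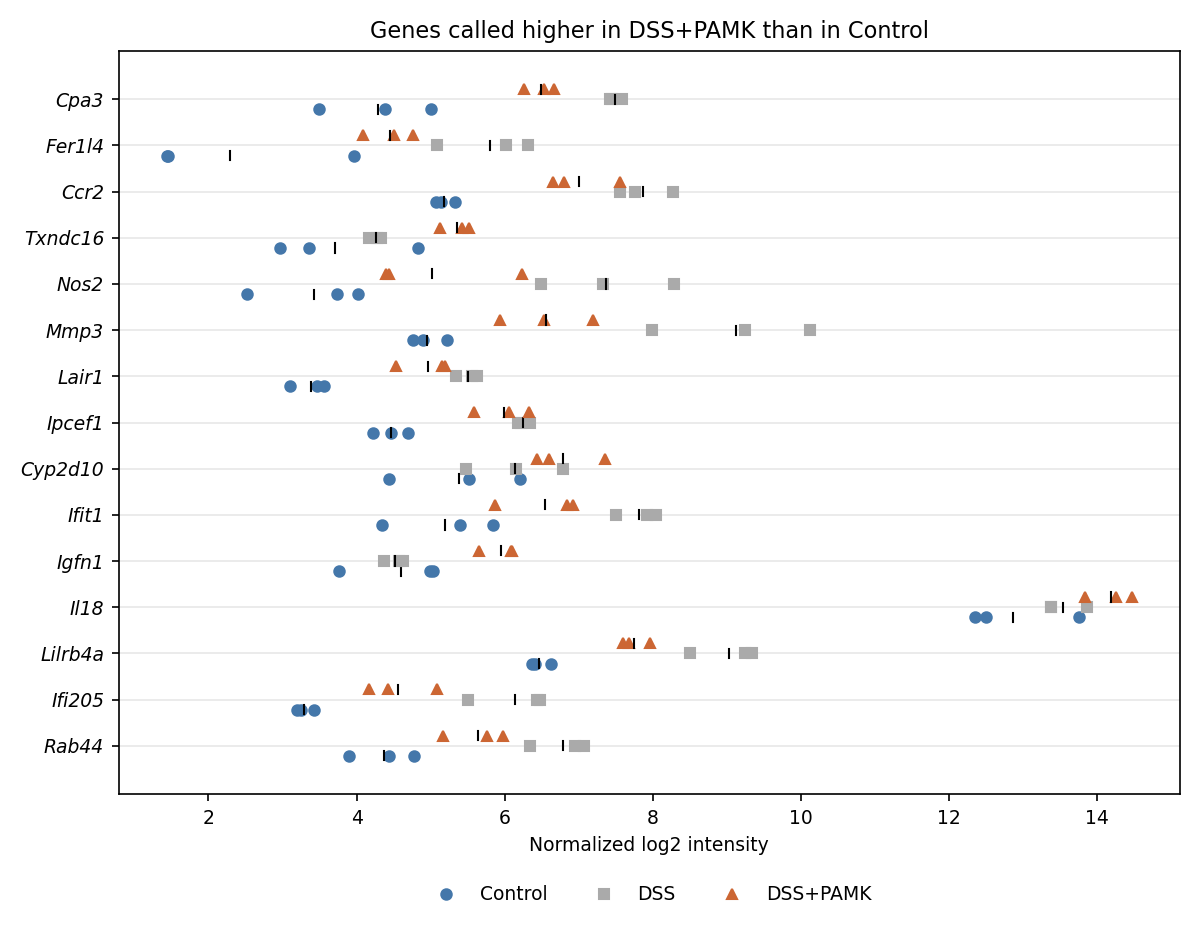
Normalized log2 intensity of the 15 named genes with the largest differences among those called higher without overlap, for each Control (circle), DSS (square) and DSS+PAMK (triangle) array, with group means as black ticks. Every triangle lies to the right of all circles of its gene.

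Pnliprp2 and Itln1 had the largest differences among the named genes called lower. Pnliprp2, a lipase related to pancreatic lipase, was at 12.23, 12.52 and 11.38 on the Control arrays and at 9.84, 7.25 and 7.06 on the DSS+PAMK arrays. The log2 difference was -3.99 (SE 0.68, adjusted p = 0.162 from limma), and -4.88 without DSS+PAMK replicate 1, the DSS+PAMK array nearest to the Control group. Its call held under every setting tried. Clps, the gene of colipase, was at 14.36, 14.07 and 14.10 on the Control arrays and 13.11, 11.59 and 11.94 on the DSS+PAMK arrays. On the DSS arrays Pnliprp2 was at 6.73, 6.82 and 6.27 and Clps at 11.47, 11.10 and 11.46. Both belong to the list of digestive enzymes of exocrine glands, which holds markers of the exocrine pancreas. The other tested gene of this list, Pnliprp1, differed by -0.99 with overlapping arrays and was not called, so that 2 of 3 were called lower (median -1.97). With slide as a fixed block Clps was at -1.64 and not called, which left 1 of 3.

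All 4 tested genes of the goblet cell list lay below the Control group, with a median log2 difference of -1.44, and 1 was called. With slide as a fixed block the median of the list was 0.17, so its direction turned, and without DSS+PAMK replicate 2 it was -0.73. Itln1, an intestinal lectin that binds microbial sugars, was at 15.32, 15.08 and 15.63 on the Control arrays and at 14.22, 9.23 and 12.40 on the DSS+PAMK arrays. The DSS+PAMK arrays were far apart and all below the Control arrays. The log2 difference was -3.39 (SE 1.11, adjusted p = 0.283 from limma), which became -4.53 without DSS+PAMK replicate 1 and -2.03 without DSS+PAMK replicate 2. The call ended with slide as a fixed block (-5.10) and by the methods' t-test. Mptx1, a mucosal pentraxin and the brightest member, was at 16.62, 17.31 and 17.12 on the Control arrays and 16.91, 14.09 and 15.66 on the DSS+PAMK arrays, where replicate 1 lay within the Control range. Its log2 difference of -1.46 was not called, but it was -2.14 and called without DSS+PAMK replicate 1, and -0.73 without DSS+PAMK replicate 2. With slide as a fixed block it was 1.23, the opposite direction.

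Hsph1, a heat shock protein that assists Hsp70, was lower with little spread on the DSS+PAMK arrays. It was at 13.47, 13.91 and 14.36 on the Control arrays, 13.03, 13.03 and 13.33 on the DSS arrays and between 11.996 and 12.12 on the DSS+PAMK arrays. The DSS+PAMK arrays lay below all others. The log2 difference from the Control group was -1.85 (SE 0.22, adjusted p = 0.113 from limma), and its second probe gave -1.87. Its call held under every setting tried. Hsph1 was the 1 tested gene of the list of immediate early and heat shock genes, which respond to handling of tissue, and the other members could not be linked to a tested probe. Ddit3, the 1 tested gene of the unfolded protein response, differed by -0.49 and was not called.

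Some genes called lower were dim. Rnase2a, Defa3 and 1700021F07Rik were tested only through the Control arrays, where they were higher. Rnase2a, a ribonuclease of eosinophils, was dim on all DSS+PAMK and DSS arrays, none of them well above background, so no p is given. With the floor used for Ms4a2, its DSS+PAMK mean was lower by at least 1.69-fold. The defensin gene Defa3 was likewise dim on all DSS+PAMK arrays. With the same floor it was lower by at least 1.26-fold, a bound that rests on Control replicate 2 at 5.23. The other Control arrays, at 3.20 and 3.43, lay below the dimmest signal well above background on DSS+PAMK replicates 1 and 2 (3.86 and 3.87), so without Control replicate 2 no decrease can be stated. The call ended without that array, without DSS+PAMK replicate 1 and without DSS+PAMK replicate 3. Fam221a, St3gal4 (a sialyltransferase) and Mcu (the mitochondrial calcium channel) had log2 differences of -1.13, -1.03 and -1.05. Without DSS+PAMK replicate 2 these were -0.76, -0.91 and -0.81, and none was called. The calls also ended without Control replicate 2 for St3gal4 (-0.65), with the median over its probes for St3gal4 (-0.92), and without Control replicate 1 for Mcu (-0.91). 1700021F07Rik, named by its transcript start, was well above background on 2 of 3 DSS+PAMK arrays, and its call ended without Control replicate 1, Control replicate 2 or DSS+PAMK replicate 1.

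**Figure D5:**
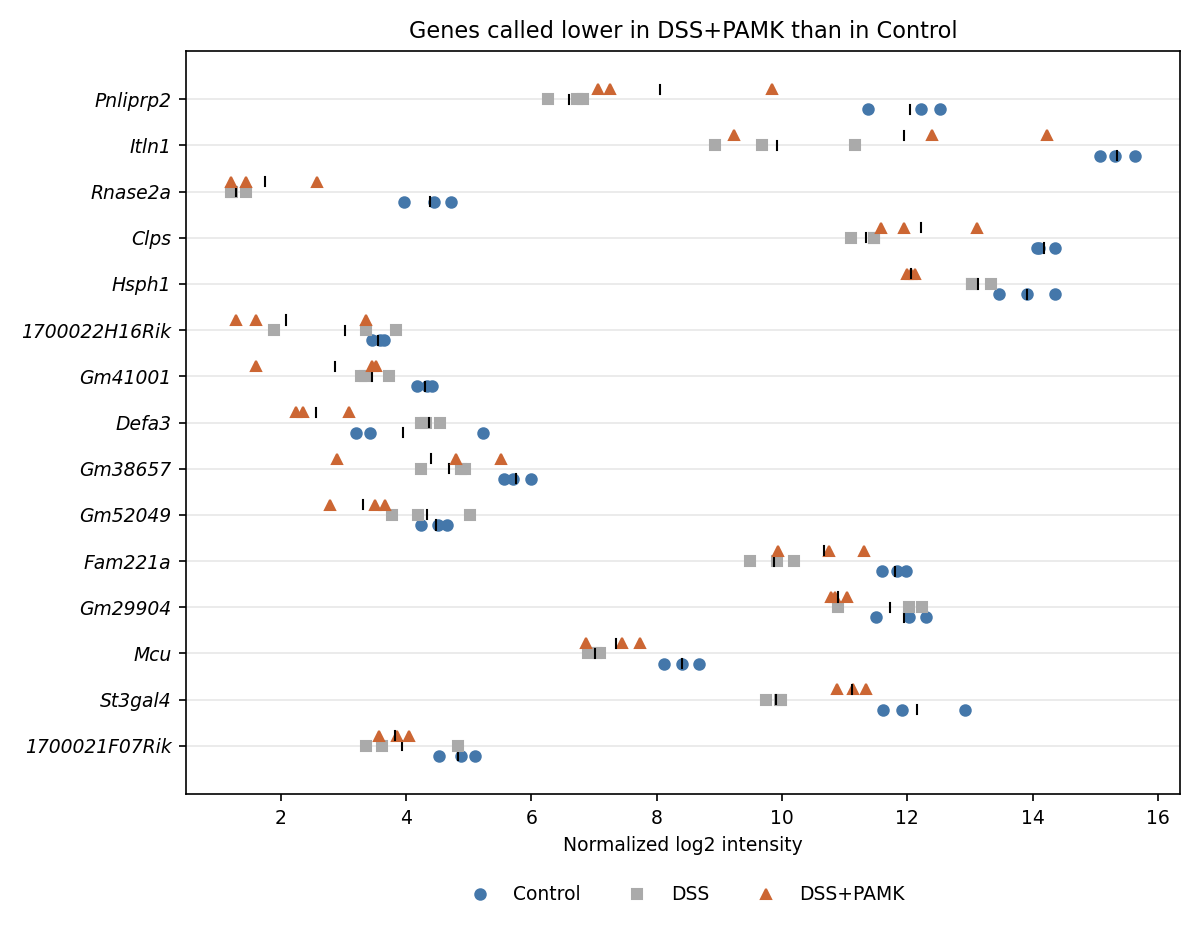
Normalized log2 intensity of the 15 named genes with the largest differences among those called lower without overlap, drawn as in the plot of higher genes. Every triangle lies to the left of all circles of its gene, and for Itln1 and Pnliprp2 the triangles are spread over more than 2 units.

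Absorptive colonocyte genes and fatty acid genes were mostly not called. All 4 tested colonocyte genes lay above the Control group with a median of 0.68, and 0 were called. Slc26a3 was called with slide as a fixed block (1.09). Acsm3, a medium-chain acyl-CoA synthetase, was the called gene of 4 in the fatty acid list. It was at 6.33, 7.34 and 6.45 on the Control arrays, 6.81, 6.50 and 6.88 on the DSS arrays and 7.85, 7.69 and 7.75 on the DSS+PAMK arrays. The log2 difference from the Control group was 1.06 (SE 0.26), and the call ended without Control replicate 1 (0.87) or Control replicate 3 (0.93). Aldh1a3, a retinoic acid-forming enzyme and the brightest member, differed by 0.61. Apod, the 1 tested fibroblast gene, differed by 0.06, and Hp, the plasma protein haptoglobin, by -0.16.

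Some genes differed from the Control group on the DSS+PAMK arrays while their DSS mean was near the Control mean. The following genes were chosen here for this pattern after their values were seen. How many called probes share it was not counted. Igfn1 had means of 4.59 ± 0.73 (SD, n = 3) on the Control arrays, 4.52 ± 0.14 on the DSS arrays and 5.95 ± 0.26 on the DSS+PAMK arrays. Its call ended without Control replicate 3 (0.93). Acsm3 had means of 6.71 ± 0.55, 6.73 ± 0.20 and 7.77 ± 0.08 in the same order. The lncRNA gene Gm29904 had means of 11.95 ± 0.40, 11.72 ± 0.73 and 10.89 ± 0.13, and for it DSS replicate 2, at 10.89, lay within the range of the DSS+PAMK arrays. Whether the DSS+PAMK and DSS groups differed was not tested, and the genes of the sheets had been selected partly for that difference.

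Of the long noncoding RNAs called lower without overlap, all named by their transcript starts, the probes of 3 are shown in full because they alone link the values to these genes, and the capitals mark the bases shared with the first transcribed bases of the gene in RefSeq.
Gm29904: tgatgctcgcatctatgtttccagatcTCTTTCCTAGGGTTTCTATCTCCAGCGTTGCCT
Gm41001: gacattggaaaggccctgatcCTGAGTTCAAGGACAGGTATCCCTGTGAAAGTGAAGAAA
Gm52049: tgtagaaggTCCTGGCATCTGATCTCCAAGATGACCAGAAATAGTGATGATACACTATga
Gm29904, on chromosome 15, was bright, at 12.30, 11.51 and 12.03 on the Control arrays and 10.78, 10.85 and 11.03 on the DSS+PAMK arrays. Gm41001 and Gm52049, both on chromosome 13, were dim and were well above background on 1 of 3 DSS+PAMK arrays, so the size of their differences is not given. Like Gm38657 and 1700022H16Rik, they were tested only through the Control arrays, where they were higher. Gm41001 was at 4.42, 4.18 and 4.33 on the Control arrays and 1.61, 3.46 and 3.52 on the DSS+PAMK arrays. Gm52049 was at 4.66, 4.51 and 4.24 on the Control arrays and 3.52, 2.79 and 3.66 on the DSS+PAMK arrays. The calls ended for Gm29904 without Control replicate 1 (-0.88) and with slide as a random block (-0.98), for Gm41001 without DSS+PAMK replicate 1 and for Gm52049 without DSS+PAMK replicate 2. Gm38657, well above background on 2 of 3 DSS+PAMK arrays, was called only without DSS+PAMK replicate 1 among the fits with 1 array left out. Its call also ended with no filter on dim probes, with the positive and significant mark, with only the 6 arrays in the fit and with slide as a random block. 1700022H16Rik stood well above background on 0 of 3 DSS+PAMK arrays, and with the bound used for Rnase2a (0.963-fold) no decrease can be stated. Its call held only without DSS+PAMK replicate 2 among the fits with 1 array left out. With slide as a fixed block the difference of Gm29904 was -0.35, and none of Gm29904, Gm41001 and Gm52049 was called.

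Of 5 tested probes that lie within a miRNA hairpin, 1 was called, that of Mir3101 on chromosome 7. It was chosen here after its values were seen. The probe covers the 5p arm whole and part of the 3p arm, and measures transcripts that hold the hairpin rather than the mature miRNA. Capitals mark the seeds.
mmu-miR-3101-5p: gGUACCAUugacuaaagcuag
mmu-miR-3101-3p: uAGCUUUGguggauggucuuu
probe within Mir3101: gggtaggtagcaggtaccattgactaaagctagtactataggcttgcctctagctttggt
The probe was at 4.05, 4.96 and 4.43 on the Control arrays and 5.56, 5.75 and 5.31 on the DSS+PAMK arrays, a log2 difference of 1.06 (SE 0.30, adjusted p = 0.253 from limma).

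Probes for circular RNAs are named after circular RNA databases. Of 13077 such probes tested, 66 were called higher and 30 lower (0.734%), against 1520 and 950 of 84746 other probes (2.91%). The groups did not overlap for 23.1% and 25% of them. Their median normalized log2 intensity was 6.82, against 5.87, and over 4 equal classes of level 5.23% of the dimmest probes and 1.1% of the brightest were called. The difference between circular and other probes was not tested.

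Most calls had no gene name. Of the 2566 called probes, 2516 were unnamed, and the largest differences were among these. The following 2 were chosen after their values were seen. The probe mclstr_71118_563_8 was at 10.50, 9.75 and 10.45 on the Control arrays, 7.25, 7.87 and 9.73 on the DSS arrays and 4.63, 4.86 and 5.85 on the DSS+PAMK arrays, a log2 difference of -5.12 (SE 0.61, adjusted p = 0.112 from limma). The probe mclstr_120217_449_15 was at 3.91, 6.67 and 3.64 on the Control arrays and 9.17, 9.40 and 9.17 on the DSS+PAMK arrays. Its DSS arrays were at 9.16, 7.24 and 4.61 and so spanned the range between the other groups.

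Of the 33 called genes picked by the rule, those that lost the call with the 75th percentile were Nos2, Ifi205, Rab44, Foxp3, St3gal4, Mcu, Gm29904 and Fam221a. By the methods' t-test the calls of Fer1l4, Nos2, Cyp2d10, Ifit1, Il18, St3gal4, Fam221a, Gm38657, Defa3, Gm41001, 1700022H16Rik and Itln1 were lost. With slide as a fixed block those of Fer1l4, Txndc16, Mmp3, Ifit1, Igfn1, Acsm3, 1700021F07Rik, St3gal4, Mcu, Gm29904, Gm52049, Gm38657, Defa3, Gm41001, Clps and Itln1 were lost. A lost call did not always come with a smaller difference. With slide as a fixed block the log2 difference was 2.09 for Mmp3, 1.18 for Acsm3, 1.36 for Ifit1 and -1.06 for Mcu. These and the differences of Fer1l4, 1700021F07Rik and Itln1 were no smaller than without the block. Those of Txndc16 (1.42), Igfn1 (1.04), Clps (-1.64), Gm29904 (-0.35), St3gal4, Gm52049, Gm38657, Defa3 and Gm41001 were smaller with the block. With normexp, the 8 that were still called were Ccr2, Il18, Fam221a, St3gal4, Hsph1, Clps, Itln1 and Pnliprp2. Of genes that were not called, Reg3g, Mmp7, Apod, Hp and Mptx1 each had a difference of the opposite sign under at least 1 setting. The signs of their differences are therefore not read as a direction.

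The DSS+PAMK arrays also differed among themselves in several lists. DSS+PAMK replicate 2 was the highest of the 3 for 8 of 9 monocyte and macrophage genes, 5 of 6 defence genes, 4 of 5 cytokine genes and 3 of 3 T cell genes. It was also the highest for 3 of 4 colonocyte genes, 2 of 3 matrix genes and 1 of 4 fatty acid genes. It was the lowest for 4 of 4 goblet cell genes. Over all tested probes, it was the highest for 38.1% and the lowest for 33.5%. DSS+PAMK replicate 1 was the highest for 3 of 3 digestive enzyme genes. The median log2 intensity of the monocyte and macrophage list was 7.69, 8.31 and 7.59 on the DSS+PAMK arrays and 7.46, 6.97 and 7.20 on the Control arrays. That of the goblet cell list was 15.10, 13.13 and 14.37 against 15.62, 15.58 and 15.80.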

How the data were processed

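The authors hybridized colonic RNA of 9 samples to 1-colour Agilent arrays and read them with Agilent Feature Extraction 10.7.1.1. The deposited intensity of each spot was corrected for background but not normalized between arrays. Control spots and 318 to 430 outlier spots per array were left out. Log2 values were averaged by probe and quantile normalized over 9 arrays. Probes well above background on all 3 Control or all 3 DSS+PAMK arrays were tested with limma 3.58.1 (R 4.3.3, data.table (version 1.17.8), statmod 1.5.0), fitted to all 9 arrays, with Benjamini-Hochberg adjustment. The brightest probe stood for a gene. Named were the 15 largest differences in each direction among called genes without overlap, up to 6 called members of each list and its brightest member, of which 1 gene is not reported here. The match of 30 bases to transcript starts was chosen after seeing the data. Members and lists were chosen with earlier results of these data known. Alternatives varied the scaling, background correction (normexp with an offset of 50), filter, test, arrays in the fit, replicate and slide blocks and the probe of a gene, or left out 1 array. The number of arrays limits the precision.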

Additional observations from a re-analysis of the deposited data

How the results depend on the processing

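The numbers of probes called higher and lower were 892 and 3873 with the 75th percentile, 185 and 153 with normexp (146 passed the adjustment), 2880 and 2131 with no filter on dim probes, 998 and 387 with only probes well above background on all 6 arrays, 2836 and 2175 with the positive and significant mark, 935 and 652 by the methods' t-test, and 3919 and 6722 with slide as a fixed block. The filters changed which probes were tested, and for the other settings the cause was not tested. With 1 array left out, 990 to 3378 probes were called higher, 561 to 1726 lower, and 0 to 30 passed the adjustment. Samples that share a replicate number did not deviate together (correlations over probes of -0.114, -0.145 and 0.046), and the replicate number as a block gave 1576 and 1033 calls. Slide as a random block gave 1490 and 806, and only the 6 arrays in the fit 1528 and 1174. With slide as a fixed block, the median log2 difference was 0.17 for the goblet cell list, 1.07 for colonocytes and 1.29 for monocytes and macrophages. The matrix list, at 0.52, had 1.59 with the filter on all 6 arrays, 0.045 with normexp and between 0.21 and 1.38 with 1 array left out, and the fatty acid list, at 0.76, had 0.39 without Control replicate 2. Of 33 called genes named by the rule, 25 lost the call with normexp, 16 with slide as a fixed block, 12 by the t-test and 8 with the 75th percentile, and 16 were called whichever array was left out. None of these 33 genes turned in sign under these settings. Signal over background limits the comparison, since DSS+PAMK replicates 1 and 2 had fewer spots well above background than any Control array.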
